A study of Mus musculus with 8 samples.

Results

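The hepatocyte nuclear factor genes were followed in single pancreas buds from mouse embryos at E11.0, when the pancreas is a small epithelial bud of the foregut. The members were 7 transcription factor genes of 3 families, taken by name from the 24341 genes of the table: *Onecut1* and *Onecut2*, *Hnf4a* and *Hnf4g*, and *Foxa1*, *Foxa2* and *Foxa3*. The question was how these genes stood when the Hippo kinases LATS1 and LATS2 were removed from the pancreatic epithelium. Total RNA was sequenced from 8 buds, with a separate library for every bud. The 5 control buds carried the genotype WT, and the 3 mutant buds carried Pdx1Creearly;Lats1f/f;Lats2f/f, the genotype called Lats1/2PanKO in the study and *Lats1/2*-null here. All 8 were labelled strain CD1 and E11.0, and the labels give no litter or age of the dam. The study's methods describe its controls in general as WT or heterozygous littermates of the mutants. Pdx1-Cre acts in the Pdx1-expressing epithelium of the pancreas and neighboring duodenum, so mesenchymal, endothelial and blood cells of a mutant bud keep their Lats genes. Mesenchyme was pulled away with forceps before RNA isolation. Values are FPKM, fragment counts scaled to the length of the transcript and to the size of the library, so that levels can be compared between genes.

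Hepatocyte nuclear factors were first named for binding the regulatory regions of liver genes, and the same factors act in the foregut endoderm that gives rise to liver, pancreas and intestine. The FOXA proteins are forkhead factors that can bind closed chromatin and open it for other factors. HNF4 proteins are nuclear receptors that drive genes of lipid, glucose and serum protein metabolism in liver and gut epithelium. ONECUT proteins carry a cut domain and a homeodomain, and *Onecut1* is required in the mouse for pancreatic endocrine progenitors and for duct and biliary development.

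All 8 libraries detected between 16117 and 16982 genes above 0. The value of a single fragment, read from low-level genes, lay within 0.97 to 1.04 of WT replicate 1 in 6 of the other 7 libraries and at 1.28 in WT replicate 5, which was therefore the shallowest. *Lats1* was lower in *Lats1/2*-null buds, at 12.1 ± 1.87 FPKM (SD, n = 3) against 15.6 ± 0.905 FPKM in the WT buds (SD, n = 5), and the groups did not overlap. *Lats2* averaged 12.3 ± 1.15 FPKM in mutants and 13.8 ± 1.26 FPKM in WT, with overlap. These values count all fragments of each gene, including any from non-recombined cells and from exons outside the deleted part. The epithelial identity of the buds was marked by *Epcam*, *Cdh1* and keratins, and the 23 epithelium markers were at higher levels in mutant buds. Their summed level was 286 to 358 FPKM in WT and 543 to 1289 FPKM in *Lats1/2*-null buds, with replicate 3 at the top. Mesenchyme markers were still present in every library, at a summed 1174 to 1313 FPKM in WT and 919 to 1186 FPKM in mutants. These sums include *Vim*, at 361 to 481 FPKM in WT and 464 to 602 FPKM in mutants. The study reports VIM protein inside the mutant epithelium at E11.5, so *Vim* need not mark mesenchyme here. In bulk tissue, fewer cells of a type and less RNA per cell cannot be told apart.

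The promoters of the members are shown first, because these factors are known to bind each other's genes and 6 of the 7 had higher means in the mutants. RefSeq starts on GRCm38.p6 were used, with the 250 bases before each start, for 8 starts of 5 members, without *Onecut2* and *Hnf4g*. Both strands were searched for ATTGAT, a core bound by ONECUT proteins, for TGTTTAC, bound by forkhead proteins, for CAAAGTCCA, bound by HNF4, and for GGAATG, bound by the TEAD partners of YAP. These letters occur in 6.72%, 3.17%, 0.384% and 12.6% of 32851 promoter windows of the same length. Capitals mark a match, and each sequence is printed 5′ to 3′ on the strand of its gene.
*Foxa2*, chr2:148046970-148047219, minus strand: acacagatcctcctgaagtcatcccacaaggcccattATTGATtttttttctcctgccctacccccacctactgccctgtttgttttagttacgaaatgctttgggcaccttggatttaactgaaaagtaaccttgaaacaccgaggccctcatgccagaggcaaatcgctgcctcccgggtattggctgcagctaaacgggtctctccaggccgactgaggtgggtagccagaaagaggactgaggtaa
*Hnf4a*, chr2:163506607-163506856, plus strand: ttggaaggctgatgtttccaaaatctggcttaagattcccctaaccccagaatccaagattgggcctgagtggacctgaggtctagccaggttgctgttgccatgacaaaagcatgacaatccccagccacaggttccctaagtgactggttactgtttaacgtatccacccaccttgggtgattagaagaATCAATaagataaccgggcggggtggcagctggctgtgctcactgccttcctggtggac
*Foxa1*, chr12:57546112-57546361, minus strand: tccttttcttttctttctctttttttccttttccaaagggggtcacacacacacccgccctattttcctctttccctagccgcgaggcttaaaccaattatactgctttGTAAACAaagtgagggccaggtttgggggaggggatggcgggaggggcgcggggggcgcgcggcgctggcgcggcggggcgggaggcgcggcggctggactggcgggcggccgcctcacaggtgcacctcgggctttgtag
*Onecut1*, chr9:74861671-74861920, plus strand: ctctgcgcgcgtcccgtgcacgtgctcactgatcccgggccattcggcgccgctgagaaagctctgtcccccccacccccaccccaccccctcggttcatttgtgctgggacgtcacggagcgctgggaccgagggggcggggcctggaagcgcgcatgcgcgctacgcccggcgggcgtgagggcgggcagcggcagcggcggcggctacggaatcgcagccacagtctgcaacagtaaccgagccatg
The *Foxa2* window held an ONECUT core 213 to 208 bases before the start. The upstream *Hnf4a* start, 40331 bases before the deposited locus, had such a core on the opposite strand, at 59 to 54 bases. The *Foxa1* window held a forkhead match on the opposite strand at 141 to 135 bases. *Onecut1* is shown because its mean was the highest of the members in both genotypes; its GC-rich window held none of the 4 motifs. None was found in the *Foxa3* window, at 2 further *Foxa2* starts or at the downstream *Hnf4a* start. No HNF4 or TEAD match was found in any of the 8 windows. A match describes letters only, and its absence says that they are not in this window.

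*Onecut1* and *Foxa2* were the abundant members and *Hnf4g* was close to absent. In WT buds the order by mean was *Onecut1*, *Foxa2*, *Hnf4a*, *Foxa3*, *Onecut2*, *Foxa1* and *Hnf4g*. The ranges of neighbors in this order overlapped except between *Foxa2* and *Hnf4a* and between *Foxa1* and *Hnf4g*. Within single buds, *Onecut1* was above *Foxa2* in 5 of 5, *Hnf4a* above *Foxa3* in 4 of 5 and *Foxa3* above *Onecut2* in 3 of 5. In *Lats1/2*-null buds *Foxa1* passed *Onecut2* in the order by mean, and did so in 2 of 3 buds. Ranges there overlapped between *Hnf4a* and *Foxa3*, *Foxa3* and *Foxa1*, and *Foxa1* and *Onecut2*, but no longer between *Onecut1* and *Foxa2*.

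**Figure D1:**
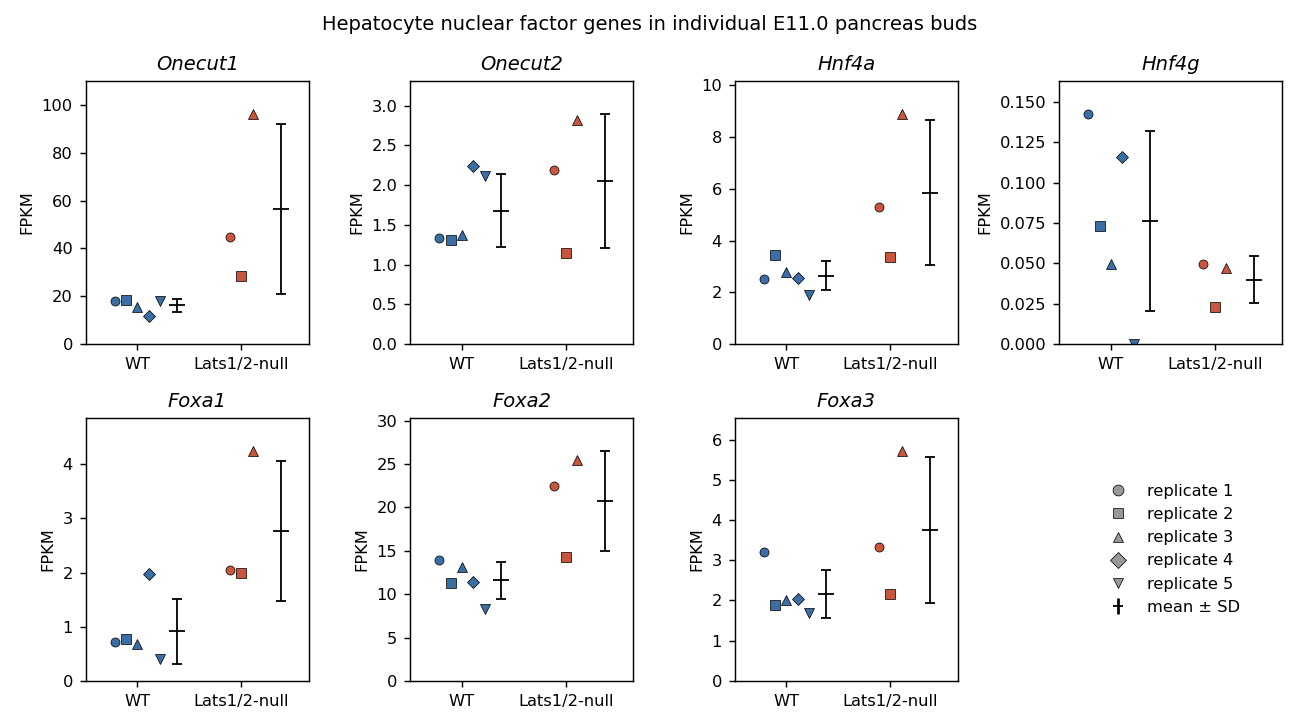
FPKM (y axis, from 0, a scale of its own for each gene) of the 7 members in every bud, with WT in blue and *Lats1/2*-null in red, a symbol for each replicate number and the mean ± SD in black beside them. *Lats1/2*-null replicate 3 is the highest bud for every member but *Hnf4g*, and only *Onecut1*, *Foxa1* and *Foxa2* have every mutant bud above every WT bud.

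*Onecut1*, on chr9:74861921-74889647 (GRCm38), had the widest difference. It measured 17.8, 18.4, 15.5, 12.0 and 18.1 FPKM in WT replicates 1 to 5. In *Lats1/2*-null replicates 1 to 3 it measured 44.6, 28.6 and 96.2 FPKM. Every mutant bud lay above every WT bud, and the mutant buds differed among themselves more than the WT buds did. The means were 16.4 ± 2.71 FPKM (SD, n = 5) and 56.5 ± 35.4 FPKM (SD, n = 3), a ratio of 3.45, or 2.24 without replicate 3. In a limma fit over the 13777 genes that averaged 0.5 FPKM or more, on log2(FPKM + 1), the log2 fold change was 1.57 ± 0.32 (SE), with a 95% interval of 0.83 to 2.30. The p was 0.000909 and the Benjamini-Hochberg adjusted p of this limma fit was 0.146, which misses the threshold of 0.05. The adjusted p was 0.0462 when *Lats1/2*-null replicate 2, the lowest of the 3, was left out. The exact two-sided permutation test gave p = 0.0179, the smallest that the 56 splits of 5 and 3 buds allow. *Onecut1* and *Foxa1* were among the lineage genes the study picked on these libraries, so their direction is not independent evidence.

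*Onecut2*, on chr18:64340364-64398488, encodes a factor with overlapping functions to *Onecut1* in foregut endoderm. It measured 1.34, 1.31, 1.38, 2.24 and 2.11 FPKM in WT buds. The mutant buds measured 2.19, 1.15 and 2.82 FPKM. Replicate 2 was the lowest bud of all 8, and the groups overlapped. The log2 fold change was 0.17 with a 95% interval of -0.32 to 0.65 (limma adjusted p = 0.825), and it was -0.014 without *Lats1/2*-null replicate 3. The third family gene, *Onecut3*, which is not a member, averaged 2.32 ± 0.591 and 2.31 ± 1.38 FPKM.

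*Hnf4a*, on chr2:163547188-163572907, is the HNF4 gene of liver, gut and pancreas epithelium. It measured 2.50, 3.44, 2.80, 2.57 and 1.89 FPKM in WT buds. In the mutant buds it measured 5.29, 3.36 and 8.88 FPKM. Replicates 1 and 3 lay above all WT buds, while replicate 2 lay just below WT replicate 2. The means were 2.64 ± 0.558 FPKM (SD, n = 5) and 5.84 ± 2.80 FPKM (SD, n = 3), a ratio of 2.21, or 1.64 without replicate 3. The log2 fold change was 0.84 ± 0.25 (SE), with an interval of 0.28 to 1.40, a limma p of 0.00772 and an adjusted p of 0.282. The exact permutation p was 0.0357. The deposited *Hnf4a* locus begins 33 bases after the downstream RefSeq start and 40331 bases after the upstream one, so the upstream first exon lies outside it and use of the upstream promoter was not measured.

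*Hnf4g*, on chr3:3508030-3659800, encodes the HNF4 paralog known from intestine and kidney. Its values were 0.143, 0.0734, 0.0495, 0.116 and 0 FPKM in WT buds and 0.0495, 0.0231 and 0.0471 FPKM in mutant buds. The values above 0 ran from 1 to 6.18 times the lowest of them, so few fragments lay behind each. Its mean was under the minimum of 0.5 FPKM, so it was left out of the reported limma fit, and no fold change is given. The exact permutation p was 0.339, and with so few fragments a difference between the genotypes could not be judged.

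*Foxa2*, on chr2:148042877-148046969, is the FOXA gene whose loss is the most severe for early endoderm. It measured 13.9, 11.3, 13.1, 11.4 and 8.29 FPKM in WT buds. The mutant buds measured 22.5, 14.3 and 25.5 FPKM. The groups did not overlap, but mutant replicate 2 stood only just above WT replicate 1. The means were 11.6 ± 2.16 FPKM (SD, n = 5) and 20.7 ± 5.80 FPKM (SD, n = 3), and the log2 fold change was 0.77 ± 0.20 (SE), with an interval of 0.31 to 1.22. The limma p was 0.00402, the adjusted p was 0.236 and the exact permutation p was 0.0179.

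*Foxa1*, on chr12:57540632-57546121, is the closest relative of *Foxa2* and shares functions with it in liver and pancreas. It measured 0.726, 0.779, 0.690, 1.97 and 0.405 FPKM in WT buds. The mutant buds measured 2.04, 1.99 and 4.25 FPKM. The groups did not overlap, by a margin of 1.97 in WT replicate 4 against 1.99 in mutant replicate 2. The means were 0.913 ± 0.606 FPKM (SD, n = 5) and 2.76 ± 1.29 FPKM (SD, n = 3), a ratio of 3.02. The log2 fold change was 0.97 ± 0.28 (SE) on log2(FPKM + 1), with an interval of 0.35 to 1.59, and 1.58 with a pseudocount of 0.1. The limma p was 0.0063, the adjusted p was 0.267 and the exact permutation p was 0.0179.

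*Foxa3*, on chr7:19013283-19023539, is the FOXA gene most tied to later liver and gut metabolism. It measured 3.21, 1.88, 2.01, 2.03 and 1.70 FPKM in WT buds. The mutant buds measured 3.33, 2.17 and 5.73 FPKM. Mutant replicate 2 lay below WT replicate 1, so the groups overlapped. The log2 fold change was 0.53 ± 0.24 (SE), with an interval of -0.02 to 1.08, a limma p of 0.0564 and an adjusted p of 0.467. Without mutant replicate 3 the log2 fold change was 0.25 (limma adjusted p = 0.995). The exact permutation p was 0.0357.

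Among the 6 tested members, none passed an adjusted p of 0.05 in limma. In all, 2 of the 13777 tested genes did, or 0.0145%. At an unadjusted limma p under 0.05, 4 of 6 members were higher in the mutants (*Onecut1*, *Hnf4a*, *Foxa1* and *Foxa2*), against 6.29% of all tested genes, and none was lower, against 4.99% of genes. Groups that did not overlap, with the mutants higher, were found for 3 of 6 members, against 4.46% of genes. All 6 had a higher mean in the mutants, against 46.9% of genes. Without *Lats1/2*-null replicate 3, 4 members were higher at an unadjusted p under 0.05, against 481 of 13699 genes, and 5 of 6 had a higher mean, with *Onecut2* on the other side of 0. The limma adjusted p was then 0.151 for *Onecut1*, 0.719 for *Foxa2*, 0.797 for *Hnf4a* and 0.816 for *Foxa1*. Ranked by p among the 13777 genes, *Onecut1* stood at 86, *Foxa2* at 234, *Foxa1* at 323 and *Hnf4a* at 377. *Foxa3* and *Onecut2* stood at 1661 and 7629. For the 6 members, the mutant buds kept the order replicate 3, replicate 1, replicate 2.

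**Figure D2:**
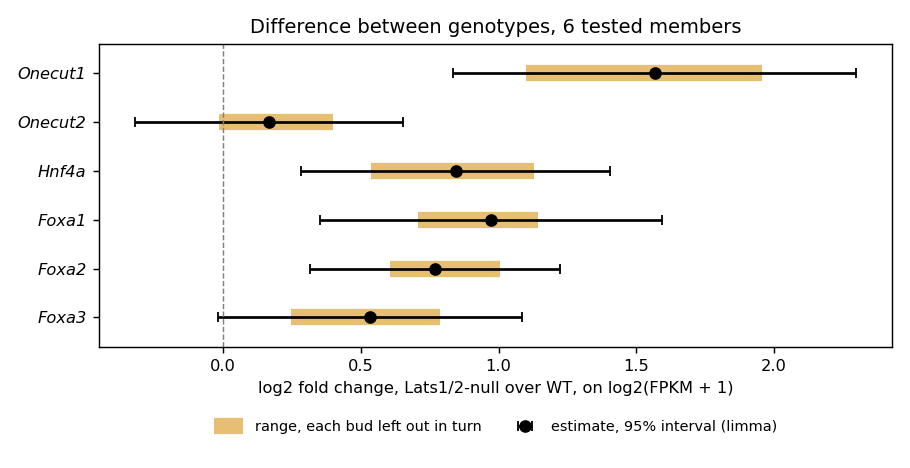
Log2 fold change of *Lats1/2*-null over WT on log2(FPKM + 1) (x axis) for the 6 tested members (y axis), with points for the limma estimate, black lines for its 95% interval and bands for the range of the estimate when each bud is left out in turn. The intervals of *Onecut1*, *Hnf4a*, *Foxa1* and *Foxa2* lie above 0, and those of *Onecut2* and *Foxa3* include 0.

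Ratios of family members within a bud do not depend on how the library was scaled, and they test whether relatives changed unequally. *Onecut1* exceeded *Onecut2* by 13.3, 14.0, 11.3, 5.34 and 8.57 times in WT buds and by 20.4, 24.8 and 34.2 times in *Lats1/2*-null buds. These did not overlap. The log2 ratio, with 0.1 FPKM added to each gene, was 3.23 ± 0.55 (SD, n = 5) in WT and 4.62 ± 0.39 (SD, n = 3) in mutants, a difference of 1.39 (exact permutation p = 0.0179, adjusted p = 0.0446 over the 5 ratios compared). The mutant buds thus carried more *Onecut1* relative to *Onecut2*, in all 3 of them. The adjusted p came under 0.05 only because the *Hnf4a* to *Hnf4g* ratio, described below, also had the smallest exact p.

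*Foxa1* was the minor partner of *Foxa2* in every bud. The *Foxa1* to *Foxa2* ratio was 0.0522, 0.0692, 0.0526, 0.172 and 0.0488 in WT buds and 0.0906, 0.140 and 0.167 in mutant buds. WT replicate 4 was the highest of the 8, and the groups overlapped. The difference of the log2 ratio was 0.76 (exact permutation p = 0.161, adjusted p = 0.201). Without WT replicate 4 it was 1.06, with an adjusted p of 0.0357, and with a pseudocount of 1 it was 0.20, with an adjusted p of 0.5. The *Foxa1* to *Foxa3* log2 ratio differed by 0.89 (exact permutation p = 0.125, adjusted p = 0.201), by 1.20 with an adjusted p of 0.0357 without that bud, and by 0.44 with a pseudocount of 1 (adjusted p = 0.246). The *Foxa3* to *Foxa2* ratio ran from 0.153 to 0.231 in WT and from 0.148 to 0.225 in mutants, and its log2 difference was -0.12 (exact permutation p = 0.536, adjusted p = 0.536). The *Hnf4a* to *Hnf4g* log2 ratio differed by 1.31 (exact permutation p = 0.0179, adjusted p = 0.0446), but *Hnf4g* is near 0, so that the ratio mostly follows *Hnf4a* and the added 0.1 FPKM.

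**Figure D3:**
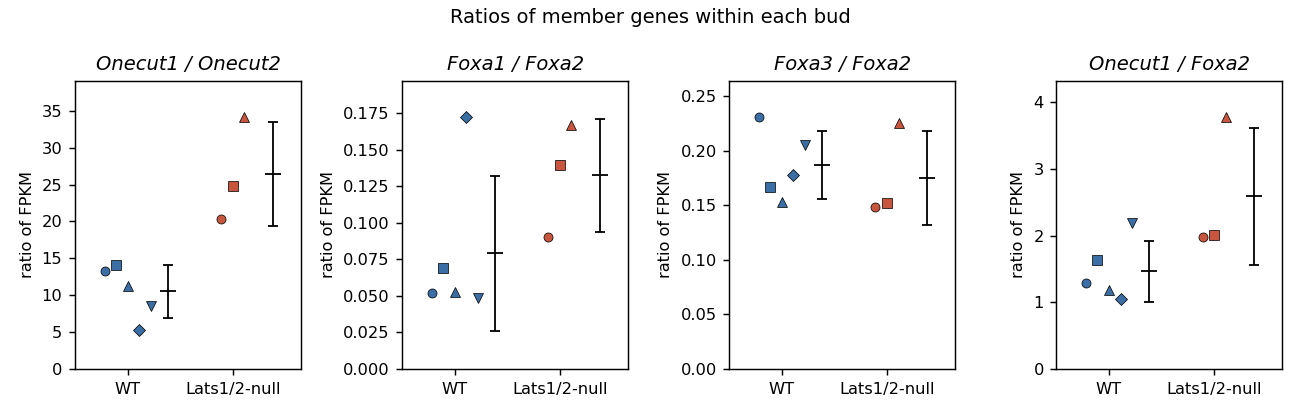
Ratio of FPKM (y axis, from 0) of 4 pairs of members within each bud, with WT in blue, *Lats1/2*-null in red, the replicate symbols of the plot of member FPKM and the mean ± SD in black. The *Onecut1* to *Onecut2* ratio is above 20 in the 3 mutant buds and at most 14.0 in WT, while the 3 other ratios overlap between genotypes.

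The ratio of the 2 most abundant members, *Onecut1* to *Foxa2*, was looked at after the values were seen and has no test. It was 1.28, 1.63, 1.18, 1.05 and 2.18 in WT buds and 1.99, 2.00 and 3.78 in mutant buds. The groups overlapped through WT replicate 5, which held the lowest *Foxa2* level.

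The members were next set beside the level of the epithelium markers in the same buds. The mean log2(FPKM + 1) of the 23 epithelium markers was 3.08, 3.19, 2.98, 3.06 and 3.01 in WT buds and 3.97, 3.69 and 4.84 in *Lats1/2*-null buds, a difference of 1.10 (exact permutation p = 0.0179). The median log2 fold change of the tested markers was 1.07, or 0.71 without mutant replicate 3. Single markers ran from 0.31 to 2.36. The study lists tight junction pathways as up-regulated in these libraries, and the marker list holds claudins. A larger share of epithelium and more marker RNA per cell cannot be told apart here. All 22 tested markers were higher in mutants at an unadjusted limma p under 0.05, none at an adjusted p under 0.05. The mutant buds stood in the same order, replicate 3, 1 and 2, as for the 6 members. *Onecut1* minus this marker mean was 1.04 ± 0.24 (SD, n = 5) in WT and 1.50 ± 0.29 (SD, n = 3) in mutants. The difference was 0.46 (exact permutation p = 0.0357, adjusted p = 0.0625 over the 7 comparisons), and mutant replicate 2 overlapped the WT buds. With the median of the markers in place of their mean, it was 0.26 (adjusted p = 0.208). With all 8 buds and a pseudocount of 1, *Onecut1* was the only member whose difference exceeded that of the markers.

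The remaining members stood level with the markers or below them. *Onecut2* minus the marker mean was lower in mutants by a difference of -0.93, and *Foxa3* by -0.57 (both exact permutation p = 0.0179, adjusted p = 0.0417). Neither overlapped. *Foxa2* differed by -0.34 (exact permutation p = 0.214, adjusted p = 0.25), *Hnf4a* by -0.26 (exact permutation p = 0.0893, adjusted p = 0.125) and *Foxa1* by -0.13 (exact permutation p = 0.768). With the median of the markers, *Hnf4a* differed by -0.47, *Foxa2* by -0.54 and *Foxa1* by -0.34. *Foxa1* turned to 0.29 with a pseudocount of 0.1, and to 0.040 without WT replicate 4. The value for *Hnf4g*, -1.15 (exact permutation p = 0.0179, adjusted p = 0.0417), restates the marker level, since *Hnf4g* itself was near 0. The marker mean rose by 1.10 in mutants without overlap, so a gene that changed little also comes out lower on this measure. The value for *Onecut2*, whose own log2 fold change was 0.17, therefore mostly restates the marker level. *Foxa3*, at 0.53, was higher in mutants by less than the markers. How many of all tested genes would do the same was not counted. The adjusted p of *Onecut2* and *Foxa3* came under 0.05 only with *Hnf4g* also at the smallest exact p that 56 splits allow. With a pseudocount of 0.1 none of the 7 passed, while the differences of *Onecut2* and *Foxa3* were about as large, at -1.06 (adjusted p = 0.0625) and -0.60 (adjusted p = 0.0833). The part of epithelial content in the members' differences was not tested beyond these values.

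**Figure D4:**
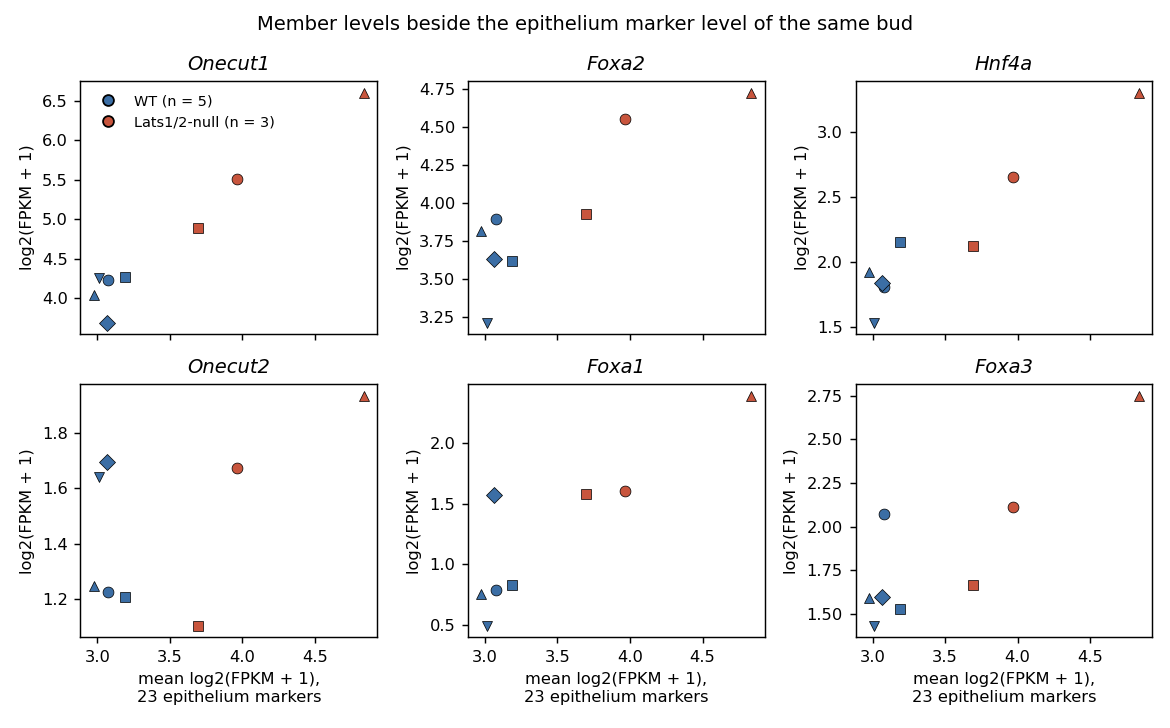
Log2(FPKM + 1) of the 6 tested members (y axis, a scale of its own for each gene, not from 0) against the mean log2(FPKM + 1) of 23 epithelium markers in the same bud (x axis), with WT in blue, *Lats1/2*-null in red and the replicate symbols of the plot of member FPKM. The WT buds lie between 2.98 and 3.19 on the x axis and the mutant buds at 3.69, 3.97 and 4.84, with the highest value of each member in the rightmost bud.

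Factors that work with the hepatocyte nuclear factors in foregut were split in direction. Of 18 listed partner factors, 14 were tested, of which 7 had higher and 7 lower means in the mutants, counted for every list on log2(FPKM + 1). At an unadjusted limma p under 0.05, 3 were higher and 2 lower, and none passed the adjusted threshold. Without *Lats1/2*-null replicate 3, 1 was higher and 0 lower at that p, and without WT replicate 1, 3 were higher and 0 lower. Their median log2 fold change was 0.06, beside -0.012 over all tested genes and 0.81 over the 6 members. *Hhex*, a homeobox factor needed for liver and ventral pancreas, averaged 7.34 ± 1.55 FPKM in WT and 18.4 ± 7.28 FPKM in mutants without overlap (log2 fold change 1.17, limma adjusted p = 0.124). *Nr5a2*, a nuclear receptor of endoderm and acinar cells, had a log2 fold change of 0.82 (limma adjusted p = 0.356). *Nr2f1*, a nuclear receptor known from mesenchyme and nervous system, had one of -0.79 (limma adjusted p = 0.363).

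Most pancreatic factors had higher means in the mutants, as 6 of the members did. *Sox9*, *Nkx6-1*, *Neurod1*, *Rfx6* and *Pdx1* were also among the lineage genes the study picked on these libraries. Their direction is therefore not independent evidence. Of 16 listed, 15 were tested, 12 with higher and 3 with lower means, and 7 were higher and 1 lower at an unadjusted limma p under 0.05, none after adjustment. The median log2 fold change was 0.60. Without *Lats1/2*-null replicate 3 it was 0.32, with 3 genes higher at p under 0.05. *Sox9*, a progenitor and duct factor, averaged 29.0 ± 3.49 FPKM in WT and 74.4 ± 32.3 FPKM in mutants (log2 fold change 1.25, limma adjusted p = 0.116). *Nkx6-1*, a progenitor and beta cell factor, averaged 10.1 ± 2.33 and 31.8 ± 16.8 FPKM (log2 fold change 1.47, limma adjusted p = 0.124). *Insm1*, an endocrine factor, had a log2 fold change of 0.74 ± 0.20 (SE, limma adjusted p = 0.242).

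Genes known as hepatic or epithelial targets of the members were mostly higher in mutants, though none passed adjustment. Of 27 listed, 19 were tested, 18 with higher and 1 with a lower mean, and 8 were higher and 1 lower at an unadjusted limma p under 0.05. The median log2 fold change was 0.56, or 0.32 without *Lats1/2*-null replicate 3, with 4 then higher at p under 0.05. *Ambp*, a serum protein precursor, averaged 65.0 ± 7.01 FPKM in WT and 135.7 ± 74.7 FPKM in mutants (log2 fold change 0.93, limma adjusted p = 0.269). *Serpina1b*, an antiprotease of liver, had a log2 fold change of 0.97 (limma adjusted p = 0.196). *Slc2a2*, the glucose transporter of liver and beta cells, had one of 1.48 (limma adjusted p = 0.291), with 14.0 FPKM in mutant replicate 3 and 2.93 and 2.35 FPKM in replicates 1 and 2. *Fabp1* and *G6pc*, both defining genes of mature liver, were listed at 0 in every library. The lone gene that was lower, *Vtn*, encodes the serum protein vitronectin.

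Markers of other tissues that could lie in a bud were read beside the members. Hepatoblast markers, which share *Hhex*, *Prox1* and *Cebpa* with the partner factors and all but *Dlk1* of the rest with the targets, had 11 of 12 tested genes higher and a median log2 fold change of 0.54, with sums of 204 to 325 FPKM in WT and 267 to 655 FPKM in mutants. Of them 5 were higher at an unadjusted limma p under 0.05, led by *Hhex*, *Afp* and *Trf*, and none after adjustment. Without *Lats1/2*-null replicate 3 the median was 0.26, with 2 genes at p under 0.05. Stomach and duodenum markers were scarce, at sums of 4.55 to 7.74 FPKM in WT and 6.44 to 13.6 FPKM in mutants, with 3 of 10 listed genes tested, none at p under 0.05, and *Tff2* and *Gkn2* at 0. Their leading genes were *Gata4*, *Sox2* and *Vil1*. The part of either in the members' values was not tested.

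The 8 pancreatic progenitor markers mostly repeat the pancreatic factors, since all but *Cpa1* and *Gcg* are in both lists. They had 7 higher means, 3 of them at an unadjusted limma p under 0.05 (*Sox9*, *Nkx6-1* and *Gcg*), and a median of 0.59, or 0.20 without *Lats1/2*-null replicate 3. *Gcg*, the glucagon gene, is an endocrine marker in the study, so its level does not speak for progenitors. All 3 were among the lineage genes that the study picked on these libraries. Markers of cells around the epithelium mostly had lower means. Mesenchyme markers had 16 of 18 tested genes lower, 4 of them at an unadjusted limma p under 0.05, and a median of -0.45, led by *Twist2*, *Pdgfra* and *Foxf1*, while *Prrx1* was higher at the same threshold. Without *Lats1/2*-null replicate 3, 13 of 18 were lower and the median was -0.16. Endothelium markers had 12 of 12 lower, 4 of them at p under 0.05, and a median of -0.40, led by *Emcn*, *Tek* and *Robo4*, with sums of 139 to 235 FPKM in WT and 98.9 to 154 FPKM in mutants, and the median was -0.25 without that bud. Red cell markers varied from 2624 to 15713 FPKM among WT buds and from 7935 to 10127 FPKM among mutants, with 8 of 8 log2 fold changes above 0, none at p under 0.05, led by *Hba-a1*, *Alas2* and *Hba-x*. Without WT replicate 1, 5 of the 8 were above 0. Leukocyte markers had 6 of 10 means higher, with *Fcer1g* alone at p under 0.05 ahead of *C1qb* and *Aif1*, and sums of 13.7 to 27.7 and 22.3 to 32.7 FPKM. Neuron and neural crest markers had 8 of 10 means higher, with *Sox10* alone at p under 0.05 ahead of *Snap25*, and sums of 32.9 to 48.7 and 43.4 to 59.3 FPKM. Among the epithelium markers *Cldn3*, *Krt19* and *Cldn4* led. With all 8 buds, no gene of these lists passed an adjusted p of 0.05 in limma. Among the epithelium markers, 4 passed without *Lats1/2*-null replicate 3 and 6 without replicate 2. Without replicate 2, 1 pancreatic factor and 2 pancreatic progenitor markers passed as well.

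For the 3 members whose genotypes did not overlap, the genes with the most similar course over the 8 buds were found by the root mean square difference of log2(FPKM + 1) after centering each gene. Nearest to *Onecut1*, whose own root mean square spread was 0.89, were *Myof* at 0.143, *Eppk1* at 0.168 and *Dcdc2a* at 0.179. In that order their means were 1.35, 0.585 and 0.149 FPKM in WT and 7.32, 3.44 and 3.07 FPKM in mutants. At such low levels the added 1 FPKM shrinks log2 differences, so a similar course is not a similar ratio. Nearest to *Foxa1*, with a spread of 0.60, were *Tmem184a* at 0.0837, *Tdrd7* at 0.203 and *Mafk* at 0.211. *Tmem184a* measured 4.92 FPKM in WT replicate 4 and 2.35 to 2.88 FPKM in the other WT buds, and so shared the high WT bud of *Foxa1*. Among those nearest to *Foxa2*, with a spread of 0.47, were *Tubb4a* at 0.145 and *Rassf5* at 0.146. These distances are descriptions over 8 buds that share the genotype difference.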

How the data were processed

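Total RNA of 8 individual buds was sequenced after stranded, rRNA-depleted library preparation. Per the study's methods and the submitters' processing notes, the authors trimmed reads with cutadapt 1.12, aligned them to mm10 (GRCm38) with TopHat 2.1.0 and computed gene values with Cuffdiff 2.2.1. The authors deposited FPKM for 24341 genes, 5450 of them at 0 in all 8 libraries, which were used as they stood. The methods name quantile normalization, but the distributions of the deposited columns differ. Depth in fragments is not given with FPKM, so no counting interval is printed. A GENCODE M21 RNA, *Gm20649*, spans *Onecut1* on the same strand and has no row in the table used, and fragments over shared bases cannot be told apart.

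Groups and replicate numbers came from the sample labels. Nothing in the labels says which buds shared a litter. The limma p sets the group difference against variation between these buds, moderated over all fitted genes, and the exact p counts splits of them. log2(FPKM + 1) of the 13777 genes that averaged 0.5 FPKM or more was fitted with limma 3.58.1 (R 4.3.3) with a mean-variance trend, and p was adjusted by the Benjamini-Hochberg method (threshold 0.05). Exact two-sided permutation tests used all 56 splits. Within-bud ratios had 0.1 FPKM added. The fit was tested on simulated data.

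The members and all gene lists were chosen with earlier results of these data known. The text names all members, *Lats1* and *Lats2*, the 3 genes of smallest limma p in each list and the 3 genes nearest to each member without overlap, except 2 that are not reported here. *Onecut3*, *Vtn*, *Fabp1*, *G6pc*, *Tff2*, *Gkn2*, *Prrx1*, *Vim*, genes shared between lists and the neighbor *Gm16551* were added for the reason given beside them or as relatives. *Pdx1*, *Neurod1*, *Rfx6*, *Ttr*, *Dlk1*, *Alb* and *Ahsg* were named to show limits of their lists. Alternatives were another pseudocount (0.1; 1 for ratios), minimum (2 FPKM or none), scaling (quantile or median-ratio), array weights, no trend, the median of the markers, a replicate block and leaving out each bud. Motifs were searched in RefSeq windows of GRCm38.p6; protein sequences were not used here.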

Additional observations from a re-analysis of the deposited data

Results flagged for a closer look

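A WT bud stood apart from the other 4 in the level of 2 members, by Dixon's ratio of the gap to the range, whose 95% critical value is 0.710 for 5 samples. *Foxa1* measured 1.97 FPKM in WT replicate 4, with the nearest WT bud at 0.779 FPKM and a ratio of 0.760. *Foxa3* measured 3.21 FPKM in WT replicate 1, with the nearest WT bud at 2.03 FPKM and a ratio of 0.782. The 7 members were examined at both ends of the WT group, and chance alone flags about 1 in 20 groups. The mutant group of 3 was too small for this ratio.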

How the results depend on the processing

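The number of genes at an adjusted p under 0.05 was 2 in the reported fit, 18 with a pseudocount of 0.1, 174 with array weights, 1 without the mean-variance trend and 1 with a replicate block, and it ranged from 0 to 69 when a bud was left out (69 without *Lats1/2*-null replicate 2, 19 without replicate 3). The members passing, 0 in the reported fit, were 2 with array weights, *Onecut1* (adjusted p = 0.0242) and *Foxa2* (adjusted p = 0.0454), and ranged from 0 to 1 when a bud was left out. The *Onecut1* log2 fold change ranged from 1.10 to 1.96 when a bud was left out, *Hnf4a* from 0.54 to 1.13, *Foxa1* from 0.71 to 1.14, *Foxa2* from 0.61 to 1.00 and *Foxa3* from 0.25 to 0.79, each lowest without *Lats1/2*-null replicate 3. *Onecut2* ranged from -0.014 (without that replicate, adjusted p = 0.997) to 0.40. With a minimum of 2 FPKM, *Foxa1* and *Onecut2* were not tested. Partner, pancreatic and target genes higher at an unadjusted p under 0.05 numbered 18 and ranged from 8 to 22 when a bud was left out (8 without *Lats1/2*-null replicate 3). Paralog ratios passing numbered 2 and ranged from 0 to 4 (4 without WT replicate 4), and with 1 bud fewer the smallest exact p rises, so a lost call says nothing about stability. Members passing against the epithelium markers numbered 3, none with a pseudocount of 0.1, although *Onecut2*, *Hnf4g* and *Foxa3* then differed by -1.06, -1.56 and -0.60, and 0 to 0 when a bud was left out, where the smallest exact p is again higher. Against the markers *Foxa1* was 0.29 with a pseudocount of 0.1 and ranged from -0.23 to 0.040 when a bud was left out, the latter without WT replicate 4.

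Same-numbered buds of the 2 genotypes did not deviate together (correlations 0.0855, -0.0969 and 0.0685 for numbers 1 to 3). The study's methods describe littermate controls in general, but the labels give no litter. Which of these buds were littermates therefore cannot be told, and the reported fit used no pairing. With the replicate block the *Onecut1* log2 fold change was 1.48 (adjusted p = 0.478) and 0 members passed.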

Other observations

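A neighbor of *Onecut1* was looked at after its values were seen, among genes within 50000 bases of a member. *Gm16551*, a processed transcript in GENCODE M21 on chr9:74848437-74852872 (GRCm38), lies on the strand of *Onecut1* and ends 9049 bases before it. It measured 8.26, 10.3, 7.61, 6.64 and 6.64 FPKM in WT buds and 18.7, 14.0 and 35.4 FPKM in *Lats1/2*-null buds. Every mutant bud lay above every WT bud, in the same order of mutant buds as *Onecut1*. The means were 7.88 ± 1.50 FPKM (SD, n = 5) and 22.7 ± 11.3 FPKM (SD, n = 3), with a log2 fold change of 1.33 ± 0.26 (SE) and a limma adjusted p of 0.136. Near *Foxa3*, the genes *Sympk*, *Irf2bp1*, *Mypop* and *Nova2* overlapped between genotypes, with log2 fold changes of 0.05, 0.07, -0.0084 and 0.05.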
